A study of Mus musculus with 4 samples.

Results

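Transcripts of 9 genes of the Hedgehog pathway were examined in F9 cells with and without knockdown of Phf19: the ligand genes Shh and Ihh, the receptor gene Ptch1, the signal transducer gene Smo, the ligand-binding antagonist gene Hhip, the inhibitor gene Sufu and the transcription factor genes Gli1, Gli2 and Gli3. Every probe set whose platform annotation gave exactly one of these symbols was taken, which gave 22 of the 45101 probe sets of the array, and 9 of 18193 genes. F9 is a mouse embryonal carcinoma line, a tumour line that resembles undifferentiated cells of the early embryo. All cells had been infected with pLKO.1 lentivirus and selected with puromycin. The virus carried either a short hairpin RNA (shRNA) against Phf19 (shPhf19, 2 arrays) or the vector control (shVector, 2 arrays). The product of Phf19 belongs to the Polycomb-like proteins, accessory subunits of the histone methyltransferase complex PRC2. The labels call the arrays of a group biological replicates, but no label says whether they came from separate infections or how many hairpin sequences were used, so the errors measure only the spread between these arrays.

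In Hedgehog signalling, a secreted ligand binds the membrane protein Patched 1 (Ptch1) and relieves its inhibition of Smoothened (Smo). Smoothened then acts through the primary cilium to release the Gli transcription factors from Suppressor of fused (Sufu), which holds them inactive. Gli2 is the main activator, Gli3 mostly a repressor, and Gli1 an activator whose own gene is a target of the pathway. Ptch1 and Hhip are targets as well, and both proteins bind ligand, so they act in negative feedback. In the mouse embryo Ihh is made by visceral endoderm, an extraembryonic tissue related to the cells that F9 can form when it differentiates.

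The target genes Hhip and Gli1 were lower in shPhf19 cells, while the genes of the ligands, Smo, Sufu and Gli2 lay close to their control values. All 4 Hhip probe sets were 2.98-fold to 3.84-fold lower in shPhf19, and the single Gli1 probe set was 1.71-fold lower (59% of shVector). Ptch1, the third direct target, was 1.20-fold lower by its brightest probe set and did not pass the test. The differences between genes in the size of the change were not tested. These genes were chosen with the comparison of shPhf19 with shVector already known. Their values are therefore given as a description, without p-values.

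The promoters of Hhip and Ptch1 are shown because both genes encode ligand-binding feedback proteins, while the change measured for their transcripts was large in one and small in the other. The sequences are from RefSeq (build GRCm38.p6) and hold the 250 bases before the annotated start, 5′ to 3′ on the gene's strand, with CG dinucleotides in capitals. The Hhip stretch is chr8:80058009-80058258 and the Ptch1 stretch chr13:63565736-63565985, both on the minus strand.
Hhip: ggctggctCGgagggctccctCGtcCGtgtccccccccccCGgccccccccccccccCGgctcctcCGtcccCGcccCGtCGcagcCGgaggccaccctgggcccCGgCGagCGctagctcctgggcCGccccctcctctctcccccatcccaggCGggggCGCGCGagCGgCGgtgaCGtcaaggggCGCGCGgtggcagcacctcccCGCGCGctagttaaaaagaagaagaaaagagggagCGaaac
Ptch1: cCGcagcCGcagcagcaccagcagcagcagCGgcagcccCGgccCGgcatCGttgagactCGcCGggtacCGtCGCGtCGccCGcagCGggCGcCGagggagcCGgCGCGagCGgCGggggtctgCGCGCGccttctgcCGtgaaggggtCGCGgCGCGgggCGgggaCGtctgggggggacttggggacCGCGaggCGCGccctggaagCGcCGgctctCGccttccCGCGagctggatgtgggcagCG
The Hhip stretch holds 28 CG dinucleotides and the Ptch1 stretch 41. Promoter windows of 300 bases (250 before and 50 after the start) were listed for 7 of the 9 genes, and Gli1 and Shh were the genes without one. Over these windows the Ptch1 promoter held 47 CG dinucleotides, more than 98.6% of the 32851 promoters of the table, and Gli3 held 39. Hhip and Ihh held 30 each, Gli2 held 28, Smo 17 and Sufu 12, against a median of 7 over all promoters. The Gli consensus GACCACCCA was searched on both strands. It was found in 0 of the 7 windows and in 0.253% of all promoters. Its inner letters CCACCC, which every full match also contains, occurred in 5 of the 7 windows and in 31.5% of all promoters. In Hhip they begin 158 bases before the annotated start, and the Ptch1 and Sufu windows hold none. A match is a description of the letters and no measured binding site. With full matches so rare over all promoters, their absence from the 7 windows says little about these genes.

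Values are log2 expression as deposited, 1 per probe set and array, and a difference of 1 is a factor of 2. The array medians lay between 5.75 and 5.77. Arrays correlated (Pearson's r over probe sets) at 0.9974 within shVector, 0.9984 within shPhf19 and 0.9961 to 0.997 between the groups. The knockdown itself was seen with 1 of the 2 Phf19 probe sets: 1427920_at was 6.07 and 6.14 in shVector and 5.08 and 5.17 in shPhf19 (change -0.98 ± 0.10 SE, limma adjusted p = 0.0108). The other, 1431857_at, was at -0.06 ± 0.12 (limma adjusted p = 0.928). It was the brighter of the 2 on average over the 4 arrays, so by its brightest probe set Phf19 did not pass the test. Markers of undifferentiated cells fitted the label of the line. The 10 markers lay between 10.3 and 14.3 over the 4 arrays, and none passed the test (limma, 4 at an unadjusted p under 0.05). Over all 45037 probe sets tested, 5708 had an unadjusted p under 0.05 (limma). This is the background for all such counts in the lists below. The smallest p-values among them were those of the pluripotency factor gene Nanog (-0.26 ± 0.05, limma adjusted p = 0.0923) and of Dppa4 (0.25 ± 0.06, limma adjusted p = 0.146).

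Both ligand genes were measured by dim probe sets and differed little between the groups. Shh, which encodes the Sonic hedgehog ligand, was 5.21 and 5.22 in shVector and 5.24 and 5.19 in shPhf19 by probe set 1436869_at (change 0.00 ± 0.09 SE, 95% interval -0.22 to 0.22). Its other probe set, 1427571_at, was 3.48 and 3.41 in shVector and 3.24 and 3.47 in shPhf19 (-0.09 ± 0.11). Ihh, the Indian hedgehog ligand, was 4.95 and 4.69 in shVector and 4.80 and 5.04 in shPhf19 (0.10 ± 0.13, interval -0.22 to 0.42). In all 3 probe sets the groups overlapped, and each lay below the array median. The table holds no detection calls, so these values may be background, and a difference in low ligand expression was not detectable with these arrays.

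At the receptor step, Ptch1 was slightly lower in shPhf19, and Smo differed little between the groups. No probe set of either gene passed the test. Ptch1 by its brightest probe set, 1428853_at, was 11.70 and 11.72 in shVector and 11.45 and 11.44 in shPhf19. Both shPhf19 arrays lay below both shVector arrays, and the gap of 0.24 between the nearest arrays was wider than the 0.02 and 0.01 between replicates. The change was -0.26 ± 0.05 (SE, 95% interval -0.38 to -0.14), which leaves 83.6% of the control signal. The dimmer Ptch1 probe sets had the same direction. Probe set 1439663_at was 6.61 and 6.41 in shVector against 6.36 and 6.30 in shPhf19, and 1450824_at was 5.88 and 5.75 against 5.67 and 5.69. Their groups did not overlap, but the gaps of 0.06 and 0.06 were smaller than the spread of the shVector arrays, and their changes were -0.18 ± 0.10 and -0.14 ± 0.10. For Smo, the membrane protein that Ptch1 inhibits, probe set 1427048_at was 9.15 and 9.14 in shVector and 9.37 and 9.26 in shPhf19 (0.17 ± 0.08, interval -0.01 to 0.35). The brightest Smo probe set, 1427049_s_at, was 9.76 and 9.63 against 9.78 and 9.77 (0.08 ± 0.07), with an s_at suffix that marks possible hybridisation to related transcripts. The third, 1442215_at, was dim and overlapped between the groups (-0.02 ± 0.09).

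Hhip, the membrane-anchored glycoprotein that sequesters Hedgehog ligands, showed the largest differences of the 9 genes. By its brightest probe set, 1455277_at, it was 8.17 and 8.70 in shVector and 6.94 and 6.58 in shPhf19. The lowest control array stood 1.23 above the highest knockdown array, against 0.53 and 0.36 between the arrays of a group. The change was -1.67 ± 0.19 (SE, interval -2.14 to -1.20), so that 31.4% of the control signal was left. Probe set 1438083_at gave the widest difference, with 7.58 and 7.96 in shVector and 5.82 and 5.85 in shPhf19 (-1.94 ± 0.14). Probe set 1421426_at was 7.55 and 7.86 against 6.24 and 5.94 (-1.61 ± 0.15), and 1437933_at was 7.32 and 7.51 against 5.85 and 5.83 (-1.57 ± 0.10). The 95% intervals of all 4 overlap. In shVector, replicate 2 was above replicate 1 in all 4 probe sets, which share the same RNA and are not independent. In these bulk samples, fewer cells with Hhip transcripts and less transcript per cell cannot be told apart. Ranked from the most lowered upwards, Hhip stood at 4 among 18193 genes, Gli1 at 70 and Ptch1 at 982.

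**Figure D1:**
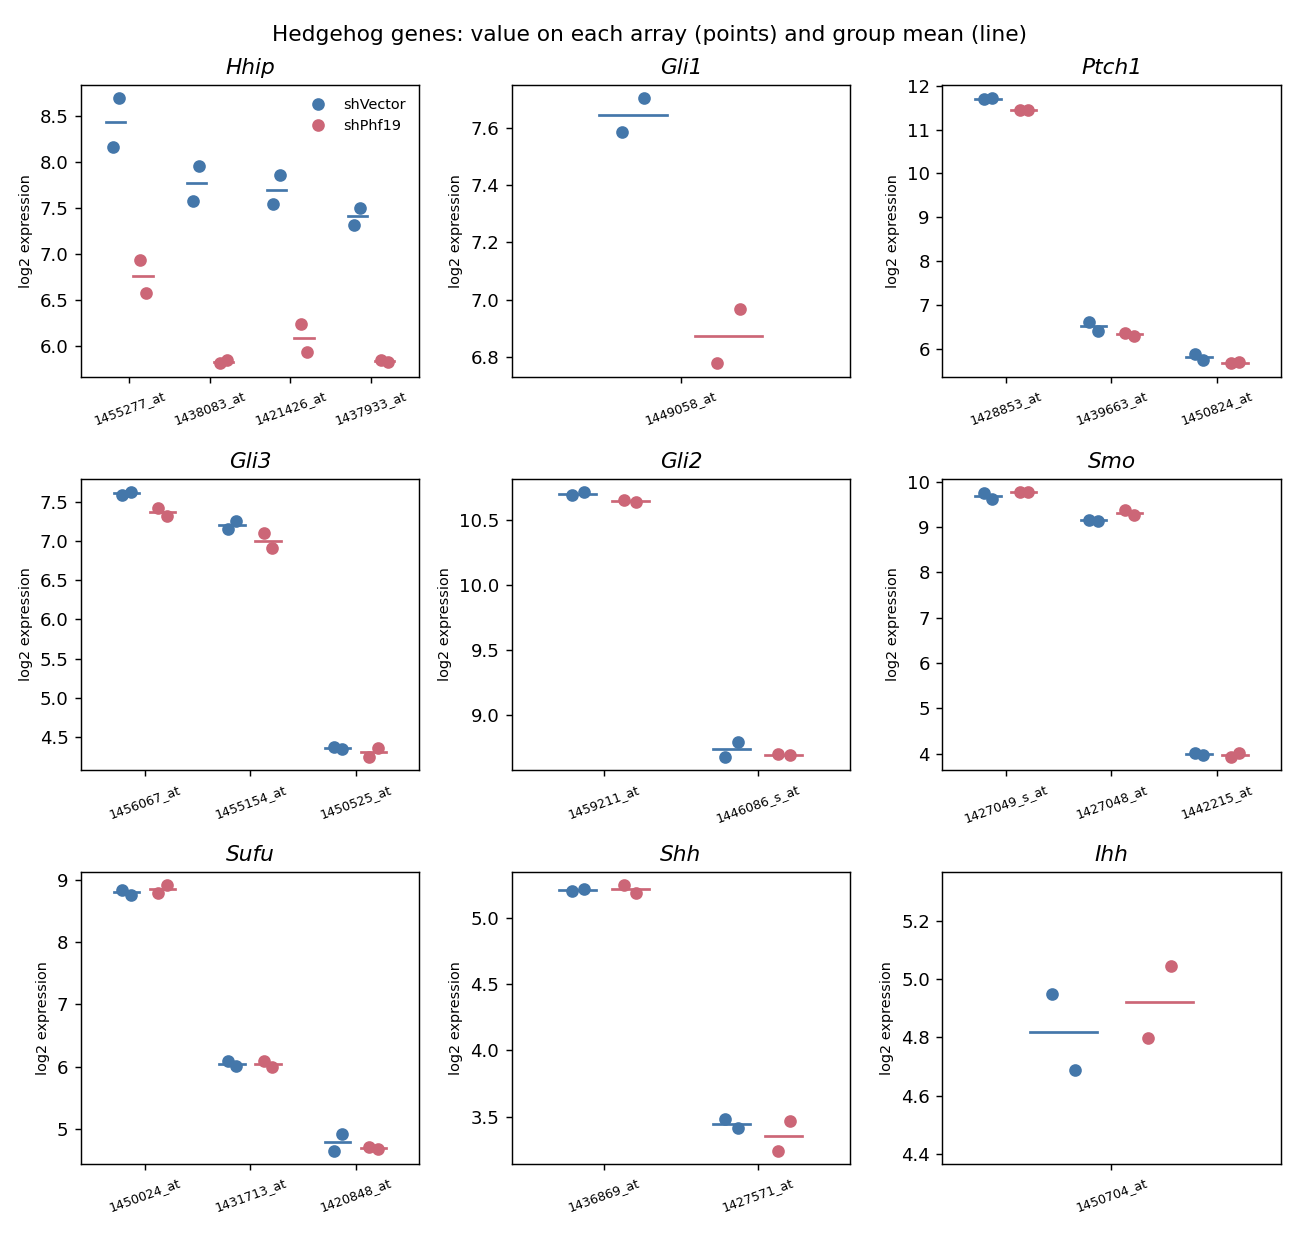
log2 expression of every Hedgehog probe set on each of the 4 arrays (points; blue shVector, red shPhf19), with a line at the mean of each group of 2 arrays. Axes differ between panels. The groups stand clear of each other for all 4 Hhip probe sets and for Gli1, while those of Shh, Ihh and Sufu overlap. By smaller gaps, the groups are also separate for Ptch1 and for some probe sets of Gli3, Smo and Gli2.

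Sufu, which binds Gli proteins and holds them inactive in the cytoplasm, was 8.84 and 8.77 in shVector and 8.79 and 8.91 in shPhf19 by its brightest probe set, 1450024_at. The groups overlapped, and the change of 0.05 ± 0.08 (SE, interval -0.15 to 0.24) was smaller than the spread between shPhf19 arrays. The other Sufu probe sets also overlapped, at -0.01 ± 0.10 for 1431713_at and -0.09 ± 0.12 for 1420848_at.

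Among the Gli factors, the target gene Gli1 stood apart from Gli2 and Gli3. Gli1 was 7.58 and 7.70 in shVector and 6.78 and 6.97 in shPhf19 by its only probe set, 1449058_at. The nearest arrays of the groups were 0.62 apart, against 0.12 and 0.19 between replicates. The change was -0.77 ± 0.10 (SE, interval -1.02 to -0.52), which leaves 58.7% of the control signal. With a single probe set, no other measurement of Gli1 on these arrays could be set beside it. Gli2, the main activator, was 10.69 and 10.72 in shVector and 10.66 and 10.64 in shPhf19 by 1459211_at (-0.06 ± 0.06, interval -0.19 to 0.08), with the groups 0.03 apart. Its other probe set, 1446086_s_at, overlapped between the groups (-0.04 ± 0.08). Gli3, which is processed to a repressor when the pathway is off, was 7.58 and 7.62 against 7.42 and 7.32 by 1456067_at (-0.23 ± 0.09, interval -0.44 to -0.02). By 1455154_at it was 7.16 and 7.26 against 7.10 and 6.90 (-0.21 ± 0.10). In both Gli3 probe sets the shPhf19 arrays were the lower ones, with 0.16 and 0.06 between the nearest arrays of the groups, against up to 0.10 and 0.20 between replicates. The third, 1450525_at, was dim and overlapped (-0.05 ± 0.10).

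In the fit over all 45037 probe sets that were tested, a probe set was called when its limma adjusted p (Benjamini-Hochberg) was under 0.05. Of the 22 Hedgehog probe sets 5 were called, the 4 of Hhip and the 1 of Gli1, all lower in shPhf19, against 1.41% of all probe sets called in either direction and 0.582% called lower; 0 were called higher, against 0.83%. Both shPhf19 arrays were below both shVector arrays in 11 of the 22, which held for 21.0% of all probe sets, and above them in 2, both of Smo, against 19.4%. Since the genes were chosen with this comparison known, these shares say nothing further about the pathway. The 17 probe sets that were not called had changes between -0.26 and 0.17, with standard errors of 0.05 to 0.13. The median change of the 22 was -0.09, against -0.01 over all probe sets tested.

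**Figure D2:**
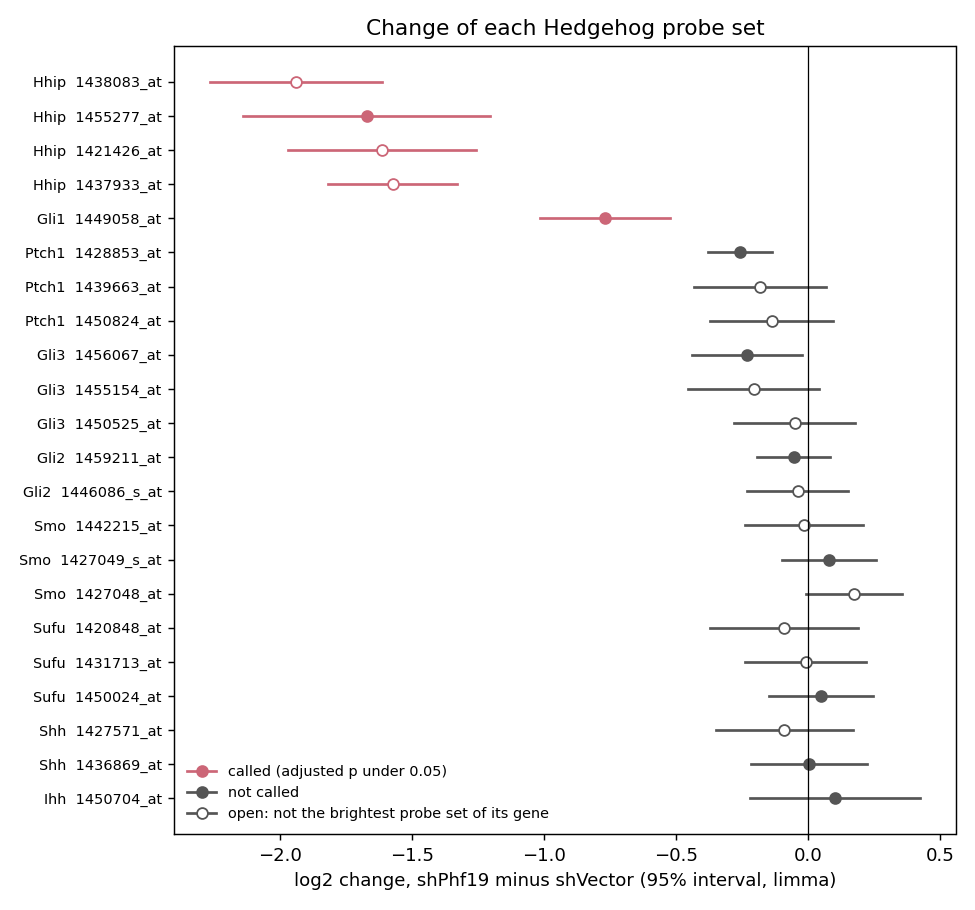
log2 change (shPhf19 minus shVector) of each of the 22 Hedgehog probe sets with its 95% interval from limma; red marks called probe sets and filled points the brightest probe set of each gene. Hhip lies between -1.94 and -1.57 and Gli1 at -0.77, and all other probe sets lie between -0.26 and 0.17.

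The calls of Hhip and Gli1 needed all 4 arrays. Their direction could not change, since both shPhf19 arrays lay below both shVector arrays in each of their probe sets. Without shVector replicate 1, shVector replicate 2, shPhf19 replicate 1 or shPhf19 replicate 2, limma called 0 of the 22 probe sets and 0 of all 45037 (2539 to 6942 at an unadjusted p under 0.05), since a group of 1 array leaves the spread to the other group. Over these 4 fits the change of Hhip ran from -1.94 to -1.41 by 1455277_at and from -2.13 to -1.75 by 1438083_at. That of Gli1 ran from -0.86 to -0.68, and that of Ptch1 by 1428853_at from -0.27 to -0.25. Averaged over the probe sets of a gene, Hhip was at -1.70 ± 0.13 and Ptch1 at -0.19 ± 0.07.

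**Figure D3:**
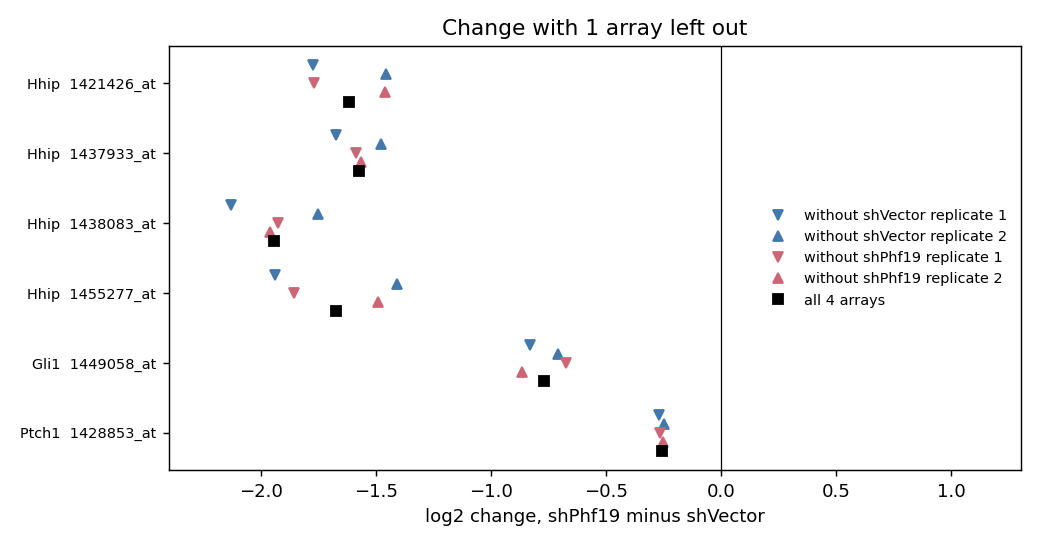
log2 change (shPhf19 minus shVector) of the 4 Hhip probe sets, Gli1 and the brightest Ptch1 probe set with all 4 arrays (squares) and with 1 array left out (triangles). Every value stays below 0, as it must where both shPhf19 arrays lie below both shVector arrays. The Hhip values without 1 array lie between -2.13 and -1.41.

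Other genes of the pathway were taken in 4 lists by role, each gene by its brightest probe set. Of 54 genes measured, 1 fell and none rose (limma adjusted p under 0.05). Over all 18193 genes, 0.863% fell, 1.15% rose and 2.02% were called in either direction. An unadjusted p under 0.05 (limma) was found for 12 of the 54 genes, against 5708 of all 45037 probe sets. The median change of the 54 genes was -0.01, against 0.00 over all genes. The gene that fell was Sfrp1, a secreted Wnt antagonist that Hedgehog signalling induces in mesenchyme. Sfrp1 by 1448395_at was 11.76 and 11.70 in shVector and 11.31 and 11.38 in shPhf19, a 1.31-fold fall (change -0.38 ± 0.06 SE, limma adjusted p = 0.0355). None of its other 4 probe sets passed, with changes of -0.63 ± 0.16, -0.36 ± 0.09, -0.34 ± 0.08 and -0.31 ± 0.09. Without any 1 of the 4 arrays the call of Sfrp1 was lost.

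The other 20 of 21 genes in the list of targets in embryonic tissues did not pass, among them Foxf1, a mesenchymal forkhead gene (-0.18 ± 0.09), the G1 cyclin gene Ccnd1 (0.13 ± 0.05) and Mycn (-0.11 ± 0.13). The median of this list was 0.00. The neural tube targets Nkx2-2, Nkx6-1 and Olig2 were at -0.03 ± 0.11, 0.07 ± 0.09 and 0.24 ± 0.09. They lay below the array median, with Nkx2-2 at 3.13 to 3.38, Nkx6-1 at 4.86 to 4.95 and Olig2 at 2.65 to 2.96. Such values may be background, and other genes of the list lay below the median too. The list median therefore does not show that its dim targets were unchanged. The 6 genes named here were picked from the list after their values were seen.

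No gene passed in the list of ligand processing and release (7 genes, 1 at an unadjusted p under 0.05, median 0.04). Scube3, which encodes a secreted protein of the family that helps release ligand, was 5.35 and 5.52 in shVector and 5.81 and 5.92 in shPhf19 (0.43 ± 0.10, limma adjusted p = 0.141). Disp1, the transporter that exports ligand from the producing cell, was at -0.16 ± 0.08 (limma adjusted p = 0.527). Of 5 receptor and ligand-binding genes none passed (2 at an unadjusted p under 0.05, median 0.01). Lrp2, the endocytic receptor megalin that binds Sonic hedgehog and is abundant in visceral endoderm, was 7.01 and 7.01 in shVector and 7.96 and 7.56 in shPhf19 by 1452320_at (0.75 ± 0.14, limma adjusted p = 0.0664). Its other probe sets were at 0.27 ± 0.13 and 0.22 ± 0.14. The co-receptor gene Cdon was 7.19 and 7.22 against 6.92 and 6.95 (-0.27 ± 0.08, limma adjusted p = 0.253). Its other probe set overlapped between the groups (0.03 ± 0.10).

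Of 21 transduction and cilium genes none passed (limma; 5 at an unadjusted p under 0.05, median -0.04), and the kinase gene listed as Adrbk1 or Grk2 was not analysed here. Gsk3b, a kinase that phosphorylates Gli proteins, was at -0.26 ± 0.07 (limma adjusted p = 0.21), and its other 5 probe sets ran in both directions, from -0.38 ± 0.10 to 0.28 ± 0.09. Kif3a, a motor subunit needed to build the cilium, was at -0.26 ± 0.08 (limma adjusted p = 0.233), with its other 3 probe sets at -0.29 ± 0.08, -0.24 ± 0.09 and -0.20 ± 0.11. For Csnk1a1, a kinase that also acts on Gli proteins, the brightest probe set was at 0.02 ± 0.04, whereas 1428537_at was 11.56 and 11.51 in shVector and 10.85 and 10.94 in shPhf19. That probe set passed (-0.64 ± 0.06, limma adjusted p = 0.0102), the other 3 did not (0.05 ± 0.09 to 0.22 ± 0.11), and which transcripts each one covers was not analysed here. Csnk1a1 was named after its values were seen.

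**Figure D4:**
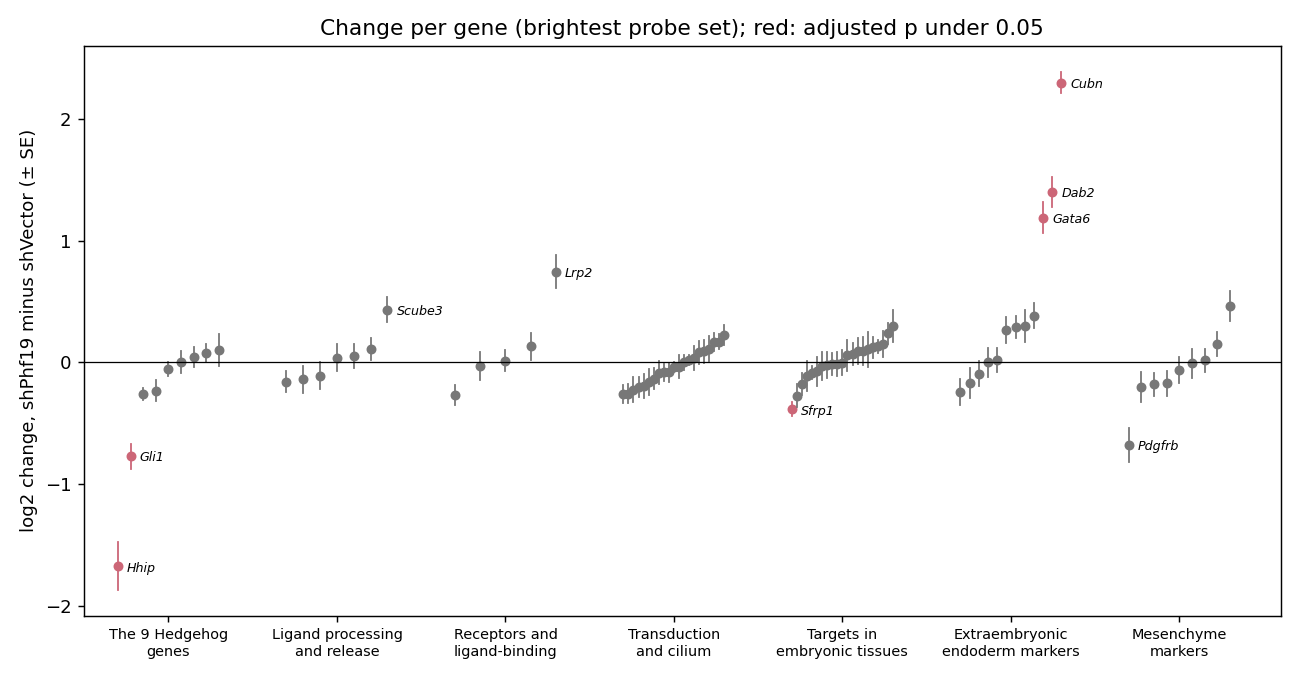
log2 change (shPhf19 minus shVector, ± SE) of each gene by its brightest probe set, for the 9 Hedgehog genes, the 4 lists of other pathway genes and 2 lists of cell type markers; red marks an adjusted p under 0.05. Among the other pathway genes only Sfrp1 is red, at -0.38, and among the endoderm markers Gata6, Dab2 and Cubn are red, between 1.19 and 2.30.

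Markers of other cell types were read on the same arrays. Of 12 extraembryonic endoderm markers 3 rose, against 1.15% of all 18193 genes. They were the endocytic genes Cubn and Dab2 and the transcription factor gene Gata6, at 2.30 ± 0.09, 1.40 ± 0.12 and 1.19 ± 0.13. Their adjusted p-values (limma) were 0.00147, 0.00863 and 0.0149. The other Cubn probe set passed as well (1.34 ± 0.12, limma adjusted p = 0.0098). The other probe sets of Dab2 (0.44 ± 0.09, 0.23 ± 0.10 and 0.09 ± 0.09) and of Gata6 (0.08 ± 0.10 and 0.00 ± 0.09) did not pass. The mean of the 12 markers was 5.73 and 5.76 in shVector and 6.20 and 6.22 in shPhf19. Of the 12, 8 had a change above 0, and in 7 both shPhf19 arrays lay above both shVector arrays, against 2 where both lay below. Over all probe sets tested, 19.4% lay above in this way and 21.0% below. The median change of the list was 0.28, against 0.00 over all genes. The members that follow were picked after their values were seen. The transcription factor gene Gata4 was at 0.38 ± 0.10, Amn, which encodes the partner of cubilin, at 0.29 ± 0.09, and Sox17 at 0.27 ± 0.11, and none of these passed. A dimmer Sox17 probe set, 1429177_x_at, passed (1.41 ± 0.12, limma adjusted p = 0.00875). Sox7 went the other way, at 9.26 and 9.55 in shVector and 9.16 and 9.16 in shPhf19 (-0.24 ± 0.11). Foxa2 was at 0.30 ± 0.13 and Hnf4a at 0.02 ± 0.10. The other Hnf4a probe sets ran in both directions, from -0.14 ± 0.11 to 0.45 ± 0.10 for the dim 1427000_at, and none passed. Sox7, Foxa2 and Hnf4a did not pass. Of the secreted proteins of visceral endoderm, Afp was at -0.17 ± 0.13, Ttr at 0.00 ± 0.12 and Apoa1 at -0.09 ± 0.10. Afp did not exceed 4.67 in any array, below the array median. The mean of 9 mesenchyme markers was 4.87 and 4.87 in shVector and 4.78 and 4.82 in shPhf19, and none of the 9 passed (limma; 2 at an unadjusted p under 0.05). The smallest p-values were those of Pdgfrb, a growth factor receptor gene, at -0.68 ± 0.14 (limma adjusted p = 0.0923), and of the surface antigen gene Thy1, at 0.46 ± 0.12 (limma adjusted p = 0.169). The other Pdgfrb probe set overlapped between the groups (-0.11 ± 0.11). The part of these cell types in the lower Hhip and Gli1 was not tested.

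The genes with a pattern most like that of Hhip were found by the Euclidean distance between log2 profiles over the 4 arrays, each centred on its own mean. The nearest of the 18193 genes was Sgms2, a sphingomyelin synthase gene, at a distance of 0.11. It was 7.56 and 8.11 in shVector and 6.33 and 6.10 in shPhf19, so that it also shared the higher value of shVector replicate 2. Inhbe, which encodes an activin subunit, followed at 0.36, then Fam174a at 0.45, B230217C12Rik at 0.48 and Id4, an inhibitor of basic helix-loop-helix factors, at 0.52. Of the Hedgehog targets, Gli1 stood at place 81 in this order and Ptch1 at place 937. The likeness rests on 4 arrays in 2 groups and is a description only.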

How the data were processed

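Gene expression was measured on Affymetrix mouse 430 2.0 arrays with biotin-labelled total RNA, per the labels. The deposited table gives 1 log2 value per probe set and array. The scale was read from the values (2.31 to 14.7), and near-equal array medians show that the authors deposited values already normalized between arrays. The sources used here do not name the software or the background correction. Probe set summaries may understate fold changes, most of all for dim probe sets. After 64 control probe sets were left out, 45037 were tested with limma 3.58.1 in R 4.3.3 (lmFit, eBayes with an intensity trend, two-sided, Benjamini-Hochberg over all, threshold 0.05). The fit has 2 residual degrees of freedom, and a median of 6.51 after moderation. SE is limma's moderated error. GEO's platform annotation paired 34945 probe sets with 1 symbol, 932 with several and 9160 with none. Of several single-gene probe sets, the one brightest on average over the 4 arrays stood for a gene of the lists.

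The Hedgehog genes and all lists were chosen with earlier results of these data known. All 9 genes and all their probe sets are described; of each other list, the genes that passed or, where none did, the 2 with the smallest p were named, and further genes are said to be picked afterwards. The labels state no shared batch for a replicate number, so the fit has no replicate term. Same-numbered arrays deviated from their group means with a correlation of -0.197 over probe sets. The sign of this value depends only on how the arrays are numbered. The test was checked on simulated data for the 45037 probe sets of shPhf19 against shVector, with limma's own error model. Of 50 probe sets per size, it called 4 at a log2 change of 0.5, 46 at 1, 48 at 1.5 and 49 at 2, besides 10 of 44837 unchanged ones. Alternatives were quantile normalization, median centring, filters on dim probe sets, no intensity trend, a replicate block, gene means, and leaving out each array.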

Additional observations from a re-analysis of the deposited data

How the results depend on the processing

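With quantile normalization, median centring, the dimmest 25% or 50% of probe sets left out, or no intensity trend, the same 5 probe sets of Hhip and Gli1 were called, and the changes of the 4 Hhip probe sets stayed between -1.94 and -1.57 and that of Gli1 between -0.78 and -0.77. Without an intensity trend limma called 380 probe sets in all, against 636, and 0 of the other pathway genes. With quantile normalization, and with the dimmest 50% left out, 2 of the other pathway genes were called, Sfrp1 and Lrp2. Same-numbered arrays share only a number. With that number as a replicate block, limma called 0 probe sets in all (3890 at an unadjusted p under 0.05), 0 of the Hedgehog probe sets and 0 of the other pathway genes; 1 residual degree of freedom is then left. With the numbers crossed, chosen after seeing the data, 596 probe sets were called, among them 4 of the Hedgehog probe sets, all of Hhip. Leaving out each array in turn gave 0 called in all 4 fits for all probe sets, for the Hedgehog probe sets and for the other pathway genes. No called Hedgehog probe set changed sign, but most of these alternatives could not have changed it. The filters, the fit without a trend and both blocks leave the log2 change as it was. Median centring shifts all probe sets of an array alike. Leaving out 1 array cannot reverse the sign where the groups do not overlap. With 2 arrays per group and no detection calls, small changes and changes of dim probe sets such as those of Shh and Ihh could not be resolved.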
